A study of Mus musculus with 11 samples.

Results

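The histones made only or mainly in the testis, the transition proteins and the protamines are the DNA-packing proteins that male germ cells exchange for one another as they mature. They were followed here as 9 genes, *Hist1h1t*, *Hist1h2ba*, *Hist1h2aa*, *H1fnt*, *Hils1*, *Tnp1*, *Tnp2*, *Prm1* and *Prm2*, taken by these symbols in the GENCODE M21 annotation of the mouse genome (GRCm38), and all 9 were found among the 23074 genes of the count table. Whole testes of 5 wild type (*Rfx2*+/+) and 6 *Rfx2*-/- mice were sequenced at postnatal day 21 (P21), both on the labels' C57BL/6|129/Sv|FVB/N mixed background, numbered here as wild type 1 to 5 and *Rfx2*-/- 6 to 11. The *Rfx2*-/- mice lack exon 7 of *Rfx2* in every tissue, since the floxed exon was removed with a universally expressed Cre. Per the study's methods, the line on this mixed background kept the selection cassette of the targeting vector. *Rfx2* encodes a transcription factor of the RFX family that binds X box sequences in promoters. The comparison asks whether the genes for the exchange of chromatin proteins differ in level when RFX2 is absent.

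In spermatocytes, testis-specific histones such as the linker histone H1t and the core variants encoded by *Hist1h2ba* (TH2B) and *Hist1h2aa* (TH2A) join or replace their somatic counterparts. In round and elongating spermatids, further linker histones (H1T2, encoded by *H1fnt*, and HILS1) appear, histones are then largely evicted, the transition proteins TNP1 and TNP2 take their place, and the protamines PRM1 and PRM2 finally condense the sperm nucleus. mRNAs of transition proteins and protamines are stored untranslated for days before they are used, so that their mRNA can be measured in round spermatids well before the protein appears. At P21 the first wave of germ cells has only just yielded round spermatids.

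How different these proteins are can be read from the coding sequences of a transition protein and a protamine. Of the 55 codons of *Tnp1*, 11 encode arginine and 10 encode lysine (18.2%). Of the 51 codons of *Prm1*, 28 encode arginine (54.9%), 3 encode lysine and 9 encode cysteine (17.6%), the residue whose disulphide bonds lock sperm chromatin. The arginine codons are in capitals in both sequences, which were spliced from the annotated GENCODE M21 transcripts on GRCm38, with the coding part of *Tnp1* at chr1:73015297-73015863 and that of *Prm1* at chr16:10796484-10796731, both on the minus strand.
Tnp1 coding sequence: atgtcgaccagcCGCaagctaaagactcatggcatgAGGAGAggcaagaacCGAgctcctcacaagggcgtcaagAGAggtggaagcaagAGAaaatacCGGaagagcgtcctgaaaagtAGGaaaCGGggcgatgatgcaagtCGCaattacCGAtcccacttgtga
Prm1 coding sequence: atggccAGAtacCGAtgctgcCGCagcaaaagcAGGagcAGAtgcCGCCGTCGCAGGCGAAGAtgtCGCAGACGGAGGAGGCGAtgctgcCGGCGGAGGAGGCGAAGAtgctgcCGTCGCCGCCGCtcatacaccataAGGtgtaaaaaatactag

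The other genes differ in the share of arginine codons. It takes 35.5% of the 107 codons of *Prm2*, 16.3% of the 398 codons of *H1fnt*, 13.7% of the 117 codons of *Tnp2* and 7.06% of the 170 codons of *Hils1*. In *Hist1h1t*, by contrast, lysine prevails, with 40 of 209 codons (19.1%) against 14 for arginine (6.70%). *Hist1h2ba* has 127 codons and *Hist1h2aa* 129, of which arginine takes 7.09% and 10.1%.

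*Tnp2* and both protamine genes lie side by side. On chromosome 16, *Tnp2* (10787936 to 10788660), *Prm2* (10791380 to 10796134) and *Prm1* (10796326 to 10805839) follow each other on the minus strand within 17904 nt, with *Prm3* among them. *Hist1h2ba* (chromosome 13, 23933773 to 23934156, minus strand) and *Hist1h2aa* (23934462 to 23934851, plus strand) form a divergent pair, and the RefSeq starts of both are separated by 280 bases. *Hist1h1t* lies elsewhere on chromosome 13 (23695814 to 23696725), *H1fnt* on chromosome 15 (98255986 to 98257293), *Hils1* on chromosome 11 (94967593 to 94968456) and *Tnp1* on chromosome 1 (73015074 to 73015909).

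Promoter windows of 300 bases, 250 before and 50 after the start, were given by RefSeq (GRCm38.p6) for all 9 genes and were searched on both strands for GTTGCC, the core of an X box arm, for the full cAMP response element TGACGTCA, which CREM binds in spermatids, for its shorter form TGACG, which the full element contains, and for TATAAA. *Hils1* was the 1 gene of the 9 whose window held GTTGCC, which 12.5% of all 32851 windows hold. No window of the 9 held TGACGTCA (1.79% of all windows), while those of *Hist1h2ba*, *Hist1h2aa* and *H1fnt* held TGACG (20.8% of all windows). TATAAA was found in the windows of *Hist1h2ba*, *Hist1h2aa* and *Prm2* (13.6% of all windows). The 250 bases upstream of 3 genes are shown with these matches in capitals, for *Hils1* because of GTTGCC (chr11:94967343-94967592, plus strand), for *Hist1h2aa* because the stretch is also the start region of *Hist1h2ba* (chr13:23934187-23934436, plus strand) and for *Prm2* as a member of the chromosome 16 cluster (chr16:10792106-10792355, minus strand).
Hils1 upstream: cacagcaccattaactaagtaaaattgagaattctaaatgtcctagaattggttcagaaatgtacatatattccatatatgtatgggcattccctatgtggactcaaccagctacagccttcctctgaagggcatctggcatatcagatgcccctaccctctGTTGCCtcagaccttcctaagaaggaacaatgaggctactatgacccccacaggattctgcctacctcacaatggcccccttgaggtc
Hist1h2aa upstream: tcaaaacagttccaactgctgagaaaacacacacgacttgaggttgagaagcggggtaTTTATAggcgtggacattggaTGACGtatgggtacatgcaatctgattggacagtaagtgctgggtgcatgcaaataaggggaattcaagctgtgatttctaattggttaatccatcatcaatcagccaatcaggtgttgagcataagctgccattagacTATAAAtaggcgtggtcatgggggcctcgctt
Prm2 upstream: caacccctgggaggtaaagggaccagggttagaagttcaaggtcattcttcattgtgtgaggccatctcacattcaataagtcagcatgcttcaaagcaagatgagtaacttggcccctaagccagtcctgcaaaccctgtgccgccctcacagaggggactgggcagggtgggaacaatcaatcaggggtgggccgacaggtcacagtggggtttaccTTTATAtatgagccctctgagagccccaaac
The stretch between the 2 histone genes holds TATAAA once on either strand, one for each direction, with TGACG next to the copy that faces *Hist1h2ba*. A match of letters does not show binding. The search took exact letters only, so the lack of a match does not show that a similar site is absent.

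Depth and the make-up of the testes bear on all 9 genes. Between 22232097 and 29769483 reads were counted per mouse, with lower totals in *Rfx2*-/- mice (two-sided exact permutation test over mice, p = 0.0130, n = 5 and 6). Levels are given as CPM (counts scaled to TMM-adjusted library sizes), on which scale the 3 reads used as a library's lower limit equal 0.0852 to 0.139 CPM. Wild type 3 and 5 stood apart in the sum of 8 pachytene spermatocyte markers, at 4657 and 4572 CPM, against 7782 to 9602 CPM in the other 9 mice. That sum rests most on abundant markers such as *Ldhc* (1208 to 3120 CPM in wild type and 2754 to 3765 CPM in *Rfx2*-/- mice). *Sycp1* ranged less widely, from 558 to 853 CPM in wild type and from 608 to 665 CPM in *Rfx2*-/- mice. Summed over 8 round spermatid markers (*Acrv1*, *Actl7a*, *Actl7b*, *Izumo1*, *Spaca1*, *Capza3*, *Tssk1* and *Tssk2*), levels ran from 8.86 to 409 CPM in wild type mice, with a median of 25.3, and from 27.3 to 574 CPM in *Rfx2*-/- mice, with a median of 125. None of these 8 markers was at 0 counts in any mouse, and none passed the test between genotypes. Values in whole testis do not separate fewer cells of a type from less RNA per cell. *Rfx2* itself was at 326 ± 118 CPM (SD, n = 5) in the wild type mice and at 304 ± 14.6 CPM (SD, n = 6) in the mutants, a count over the whole gene that does not show whether exon 7 is present.

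None of the 9 genes was called different between genotypes. With edgeR's quasi-likelihood test fitted to all 15745 tested genes, 420 genes (2.67%) were called at an adjusted p of at most 0.01, of which 305 were lower (1.94%) and 115 higher (0.730%) in *Rfx2*-/- testis, and 0 of the 9 were among them. The adjusted p-values of the 9 genes lay between 0.345 and 0.959, and 0 of 9 had an unadjusted p under 0.05, against 41.8% of all tested genes. At the same threshold limma voom gave 0 of 9, and DESeq2 0 of the 5 for which it gave a p, since it gave none for *Tnp1*, *Tnp2*, *Prm1* and *Prm2*. In 0 of 9 genes were the genotypes separated without overlap, against 11.7% of all tested genes. Fitted log2 fold changes (*Rfx2*-/- minus wild type) were positive for 5 and negative for 4 genes, with a median of 0.02, beside a median of -0.05 over all tested genes. Across mice the 9 genes followed 2 patterns, one of low levels within a range of a few fold and one in which mice of the same genotype differed widely.

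**Figure D1:**
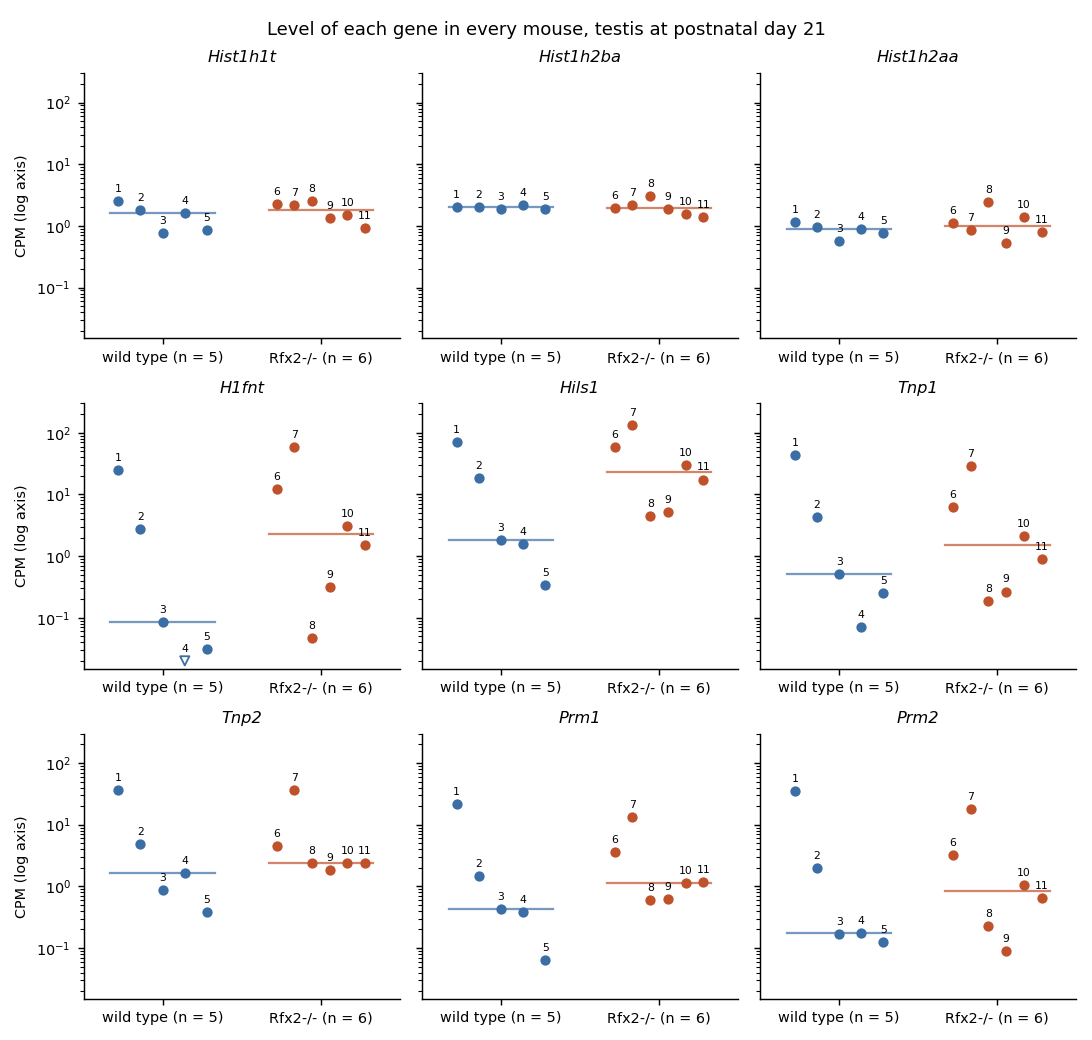
Level of each of the 9 genes in every mouse, in CPM on a log axis. Points are mice with their number, 5 wild type to the left and 6 *Rfx2*-/- to the right, bars are medians, and the open triangle marks the mouse with 0 counts. The 3 spermatocyte histones stay between 0.533 and 3.05 CPM in all mice, while the other 6 genes are highest in wild type 1 and *Rfx2*-/- 7.

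The 3 spermatocyte histones were low in all mice, and within a genotype their highest level was 1.17 to 4.51 times the lowest. *Hist1h1t*, the testis linker histone of pachytene spermatocytes, was counted at 2.50, 1.78, 0.767, 1.65 and 0.849 CPM in wild type 1 to 5. In *Rfx2*-/- mice it ranged from 0.914 to 2.54 CPM with a median of 1.83. These levels rest on 21 to 71 reads per mouse and overlap almost entirely, with the lowest values in wild type 3, wild type 5 and *Rfx2*-/- 11. The means were 1.51 ± 0.719 CPM (SD, n = 5) and 1.78 ± 0.632 CPM (SD, n = 6), and the log2 fold change was 0.24 (SE 0.35, edgeR adjusted p = 0.606).

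*Hist1h2ba*, which encodes the H2B variant TH2B, differed least between wild type mice. Wild type mice had 2.01, 2.02, 1.87, 2.17 and 1.85 CPM, and *Rfx2*-/- mice between 1.39 and 3.05 CPM with a median of 1.93. The wild type range thus lay inside that of *Rfx2*-/- mice. The log2 fold change was 0.02 with an SE of 0.19, and its 95% interval ran from -0.40 to 0.43, so that a doubling or halving of the mRNA lay outside it. With an SD of 0.09 on the log2 CPM scale among wild type mice, *Hist1h2ba* was at percentile 6.12 of all tested genes, but among *Rfx2*-/- mice its SD of 0.38 was at percentile 84.4. These levels rest on 57 to 66 reads per mouse in wild type and 32 to 66 in *Rfx2*-/- mice. Counting error is part of the spread at such counts, so the SD of 0.09 does not show that the gene is steady.

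*Hist1h2aa*, its divergent neighbour encoding the H2A variant TH2A, had 1.16, 0.975, 0.568, 0.876 and 0.754 CPM in wild type mice. *Rfx2*-/- mice ranged from 0.533 to 2.404 CPM with a median of 0.992. *Rfx2*-/- 8 had the highest value and the other 5 *Rfx2*-/- mice lay at 1.39 CPM or below. The log2 fold change was 0.45 (SE 0.36, edgeR adjusted p = 0.345), and without *Rfx2*-/- 8 it was 0.12. That mouse had the highest level of all 3 spermatocyte histones in both genotypes, at 2.54, 3.05 and 2.404 CPM, although its round spermatid markers were the lowest of the *Rfx2*-/- mice, at 27.3 CPM. *Hist1h1t*, *Hist1h2ba* and *Hist1h2aa* all belong to a histone cluster whose other members mostly lack poly(A) tails. Libraries made from polyadenylated RNA miss such transcripts, so that the levels of all 3 are those of the captured RNA. In the annotation 129 nt of *Hist1h2aa* are also covered by a microRNA gene on the other strand that is not in the count table.

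The remaining 6 genes varied together between mice of the same genotype. *H1fnt*, encoding the spermatid linker histone H1T2 that sits at the apical side of the nucleus, had 25.3, 2.76, 0.0852, 0 and 0.0314 CPM in wild type 1 to 5. *Rfx2*-/- 6 to 11 had 12.4, 58.0, 0.0462, 0.311, 3.13 and 1.52 CPM. Wild type 3, 4 and 5 and *Rfx2*-/- 8 were at or below the floor of 3 reads, whereas 1406 reads were counted in *Rfx2*-/- 7. The log2 fold change was 1.16 with an SE of 1.76 (edgeR adjusted p = 0.620).

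*Hils1*, the linker histone of elongating spermatids, had 71.8, 18.6, 1.82, 1.58 and 0.346 CPM in wild type 1 to 5. *Rfx2*-/- mice ranged from 4.53 CPM in mouse 8 to 136 CPM in mouse 7, with a median of 23.5. All 6 *Rfx2*-/- values lay above those of wild type 3, 4 and 5, and 5 of 6 lay below wild type 1. The means were 18.8 ± 30.6 CPM (SD, n = 5) and 42.2 ± 50.4 CPM (SD, n = 6), and the log2 fold change was 1.16 (SE 1.26, edgeR adjusted p = 0.486). *Hils1* lies inside *Sgca* on the opposite strand, with 0 nt of shared exon.

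For the transition proteins, the mouse with the highest level was wild type 1. *Tnp1* had 43.4, 4.24, 0.511, 0.0701 and 0.251 CPM in wild type 1 to 5. *Rfx2*-/- 6 to 11 had 6.19, 28.9, 0.185, 0.267, 2.09 and 0.914 CPM. From *Rfx2*-/- 8 to *Rfx2*-/- 7 this is a 156-fold range among mice of 1 genotype, and 89.5% of the summed wild type CPM came from wild type 1. The log2 fold change of -0.59 (SE 1.55, edgeR adjusted p = 0.779) had a 95% interval from -4.00 to 2.82. Of the *Tnp1* exons 40 nt overlap an antisense gene that is not in the count table, and whether counting used strand is not stated.

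*Tnp2* had 36.3, 4.88, 0.880, 1.65 and 0.377 CPM in wild type 1 to 5. In *Rfx2*-/- mice it ranged from 1.82 to 36.0 CPM with a median of 2.37. In the 5 mice with the fewest round spermatid markers, 12 reads of *Tnp2* and 8 of *Tnp1* were counted in wild type 5, 31 and 18 in wild type 3, 47 and 2 in wild type 4, 51 and 4 in *Rfx2*-/- 8, and 41 and 6 in *Rfx2*-/- 9. The highest wild type and the highest *Rfx2*-/- mouse were level, and the log2 fold change was -0.09 (SE 1.20, edgeR adjusted p = 0.959).

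Wild type 1 and then *Rfx2*-/- 7 were again the highest mice for both protamines. *Prm1* had 21.9, 1.45, 0.426, 0.385 and 0.0629 CPM in wild type 1 to 5 and from 0.601 to 13.4 CPM in *Rfx2*-/- mice, with a median of 1.15. *Prm2* had 35.3, 1.95, 0.170, 0.175 and 0.126 CPM in wild type 1 to 5 and from 0.0889 to 18.2 CPM in *Rfx2*-/- mice, with a median of 0.848. Wild type 1 held 90.4% of the summed wild type CPM of *Prm1* and 93.6% of that of *Prm2*, and *Rfx2*-/- 7 held 65.5% and 77.5% of the *Rfx2*-/- sums. The log2 fold changes were -0.50 for *Prm1* (SE 1.305, adjusted p = 0.779) and -0.94 for *Prm2* (SE 1.58, adjusted p = 0.656), both from edgeR.

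All 6 genes were among the most variable genes of the testis in both genotypes. On the log2 CPM scale (prior count 2) their SDs between wild type mice ran from 2.46 for *Tnp2* to 3.64 for *H1fnt*, against a median of 0.28 over all tested genes, and from 1.60 to 3.25 between *Rfx2*-/- mice, against 0.16. This placed *Tnp2* at percentile 98.3 and *H1fnt* at percentile 99.97 of the tested genes in wild type mice. In *Rfx2*-/- mice the lowest percentile of the 6 was 97.4, again that of *Tnp2*. The spermatocyte histones *Hist1h1t* and *Hist1h2aa* stood at percentiles 87.1 and 62.2 in wild type mice, with SDs of 0.69 and 0.36, and at percentiles 90.3 and 92.9 in *Rfx2*-/- mice, so that they too varied more than most tested genes there.

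**Figure D2:**
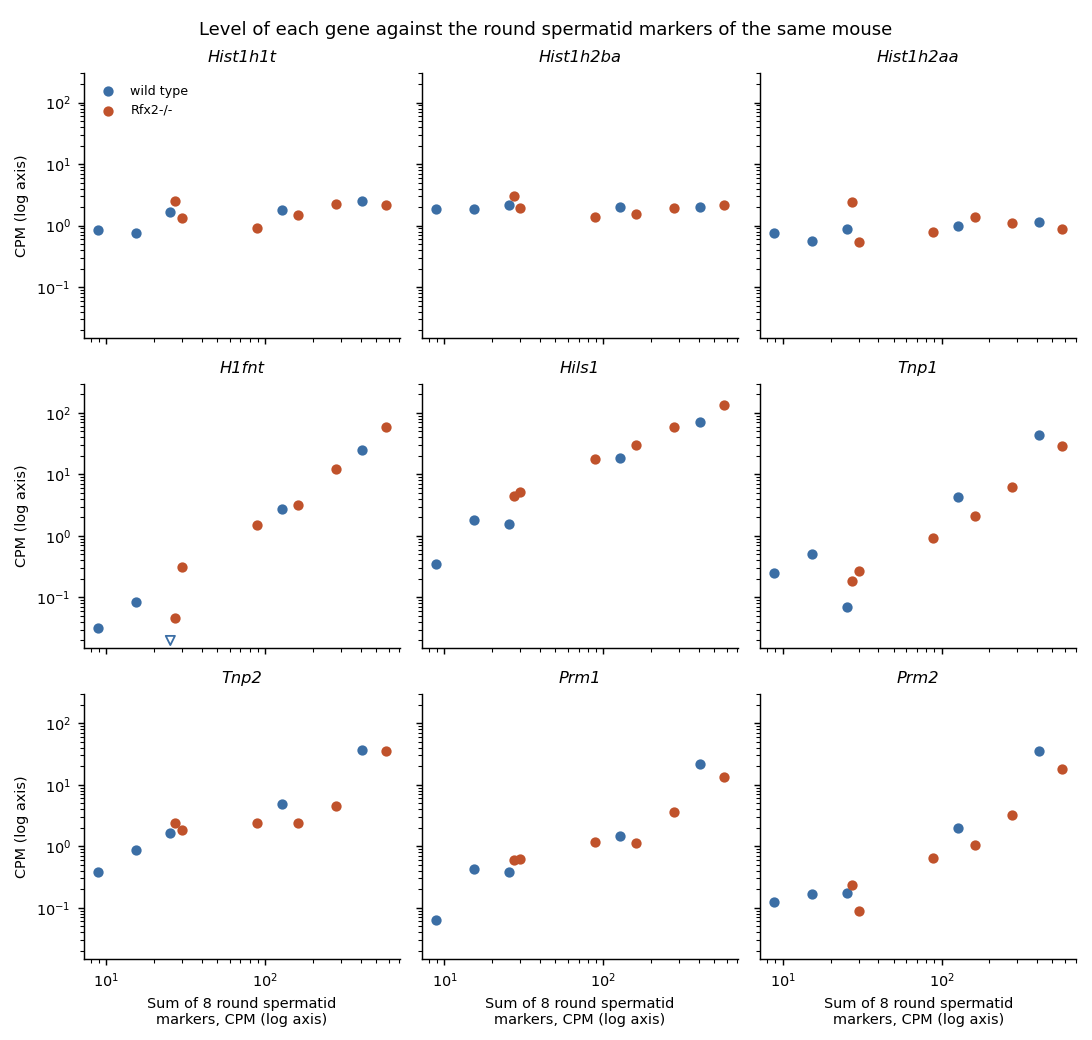
CPM of each gene (vertical, log axis) against the summed CPM of 8 round spermatid markers in the same mouse (horizontal, log axis), with 1 point a mouse and the open triangle for 0 counts. The 6 spermatid genes are higher where the markers are, which sum to 8.86 CPM in wild type 5 and to 574 CPM in *Rfx2*-/- 7, and the 3 spermatocyte histones stay between 0.533 and 3.05 CPM.

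The mice stood in nearly the same order for the 6 genes as for the round spermatid markers. By the marker sum that order was *Rfx2*-/- 7 (574 CPM), wild type 1 (409), *Rfx2*-/- 6 (280), *Rfx2*-/- 10 (162), wild type 2 (127), *Rfx2*-/- 11 (88.8), *Rfx2*-/- 9 (30.1), *Rfx2*-/- 8 (27.3), wild type 4 (25.3), wild type 3 (15.4) and wild type 5 (8.86). *H1fnt* and *Hils1* had the same 6 mice at the top in the same order. *Tnp1*, *Tnp2*, *Prm1* and *Prm2* instead put wild type 1 above *Rfx2*-/- 7, and wild type 2 above *Rfx2*-/- 10. The sum of 6 elongating spermatid markers moved along, from 418 to 2094 CPM in wild type and from 1221 to 2875 CPM in *Rfx2*-/- mice. That sum rests most on *Odf2* (410 to 1509 CPM in wild type and 1189 to 2012 CPM in *Rfx2*-/- mice). Each of the others was at 0.220 to 5.50 CPM in its lowest wild type mouse and at most 235 CPM in any mouse. The part of the elongating and round spermatid markers in the levels of the 6 genes was not tested beyond the fit with a round spermatid score.

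After the genotype means were subtracted, the 15 pairs among the 6 spermatid genes had Pearson's r between 0.873 (*H1fnt* and *Tnp2*) and 0.988 (*H1fnt* and *Tnp1*) over the 11 mice on the log2 CPM scale, as a description of values from the same libraries. For the chromosome 16 neighbours it was 0.974 for *Tnp2* and *Prm1* and 0.967 for *Prm1* and *Prm2*. Among the 3 spermatocyte histones r was 0.557 to 0.656, the lowest value being that of the divergent pair *Hist1h2ba* and *Hist1h2aa*. Between the histones and the spermatid genes it ran from -0.18 to 0.72, with the highest value for *Hist1h1t* and *Tnp2*.

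By the same measure, the 5 genes outside the 9 most like *Tnp1* were *Proca1* (r = 0.993), *Gm4787*, *Ccin*, *1700001P01Rik* and *Chd5* (0.989), of which *Ccin* encodes calicin of the sperm head skeleton and *Chd5* a chromatin remodeller needed for the histone exchange. For *H1fnt* they were *Aox3* (0.996), *Nckap1l*, *Morn3*, *Fam243* and *Lelp1* (0.995). *Prm1* was followed most closely by *Cep152* (0.987), *Spred3*, *Mnt*, ENSMUSG00000078667 and *1700056E22Rik* (0.980). *Mnt* and *Cep152* ran from 53.5 to 104 and from 13.5 to 23.5 CPM over the 11 mice, a narrower fold range than that of *Prm1*. *Hist1h1t*, with a smaller spread than the spermatid genes, had *Sgpp2* (0.953), *Pax3*, *Tsga10ip*, *Trbv5* and *Gpr89* (0.918) nearest to it. Of these, *Pax3* and *Trbv5* stayed at or below 1.20 CPM, while *Tsga10ip* ran from 0.0435 to 49.7 CPM. With the spermatid genes, *Hist1h1t* had r from 0.480 (*H1fnt*) to 0.719 (*Tnp2*), beside 0.655 with *Hist1h2ba* and 0.656 with *Hist1h2aa*.

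Levels of different genes can be compared only per length, as reads scaled to exon length and library size (RPKM). For the 3 spermatocyte histones, transcripts without poly(A) tails may be missed in these ranks. In wild type 1, *Tnp1* led with 99.4 RPKM, followed by *Hils1* (83.1), *Tnp2* (65.4), *Prm2* (39.4), *Prm1* (38.3) and *H1fnt* (19.3), all above *Hist1h2ba* (5.23). In *Rfx2*-/- 7 the order was *Hils1* (158 RPKM), *Tnp1* (66.2), *Tnp2* (65.1), *H1fnt* (44.4), *Prm1* (23.5) and *Prm2* (20.4), with *Hist1h2ba* at 5.70. *Hist1h2ba* was the highest of the 9 in wild type 3, 4 and 5 and in *Rfx2*-/- 8, at 4.88, 5.66, 4.83 and 7.95 RPKM. By medians, wild type testis ranked *Hist1h2ba* (5.23 RPKM) first and *H1fnt* (0.0651) last, and *Rfx2*-/- testis ranked *Hils1* (27.2) first and *Prm2* (0.949) last. The ranges over mice of every pair of neighbours in either ranking overlapped.

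Single mice also set the direction of the fitted genotype differences. Without wild type 1, the log2 fold changes of all 6 spermatid genes were positive, at 4.14 for *H1fnt*, 2.92 for *Hils1*, 2.35 for *Tnp1*, 2.09 for *Tnp2*, 2.56 for *Prm1* and 2.70 for *Prm2* (edgeR adjusted p = 0.0824 to 0.219). Without *Rfx2*-/- 7 they were -0.69, 0.31, -2.32, -1.71, -1.76 and -2.82 in the same order. Removal of both mice, an alternative chosen after seeing the data, gave 2.30, 2.08, 0.62, 0.48, 1.299 and 0.83. None of the 6 was called in any of these fits. Over the 11 fits without 1 mouse the log2 fold change ran from 0.08 to 0.50 for *Hist1h1t*, from -0.14 to 0.10 for *Hist1h2ba* and from 0.12 to 0.61 for *Hist1h2aa*. Without wild type 3 and 5, also chosen after seeing the data, 0 of the 9 genes were called and the values were -0.14 for *Hist1h1t*, 0.43 for *H1fnt*, 0.46 for *Hils1*, -1.31 for *Tnp1* and -1.67 for *Prm2*.

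**Figure D3:**
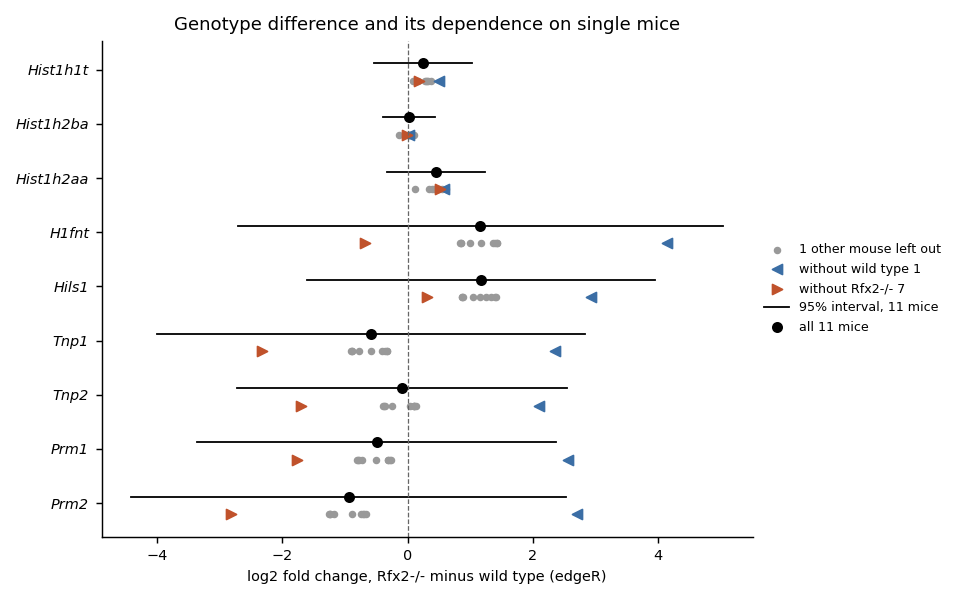
Log2 fold change of each gene (*Rfx2*-/- minus wild type, edgeR), with black points and 95% intervals for all 11 mice and, beneath, the values with 1 mouse left out. For the 6 spermatid genes leaving out wild type 1 or *Rfx2*-/- 7 moves the value by far more than leaving out any other mouse, and for *Tnp1* from 2.35 to -2.32.

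Wild type 2, with 127 CPM of round spermatid markers, lay between *Rfx2*-/- 10 (162 CPM) and *Rfx2*-/- 11 (88.8 CPM). Its *H1fnt* level of 2.76 CPM was between theirs of 3.13 and 1.52 CPM, as was its *Hils1* level of 18.6 CPM between 29.6 and 17.5 CPM. For *Tnp1* it had 4.24 CPM against 2.09 and 0.914 CPM, and for *Tnp2* 4.88 CPM against 2.39 and 2.35 CPM. These are single mice, and no test was made between them. With a round spermatid score, the mean log2 CPM of the 8 markers, as a covariate in edgeR, the log2 fold change was 0.66 for *Hils1* (adjusted p = 0.0108), -1.62 for *Prm2* (adjusted p = 0.0155) and -1.48 for *Tnp1* (adjusted p = 0.0260). It was 0.24 for *H1fnt*, -0.82 for *Prm1* and -0.57 for *Tnp2*. Thus 0 of the 9 genes were called at an adjusted p of at most 0.01, where 7.68% of all tested genes were, and 3 of 9 had an adjusted p of at most 0.05, where 27.2% of all tested genes had. The score comes from the same libraries as the levels.

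Ratios between 2 genes of the same library were taken within each mouse. *H1fnt* over *Tnp1*, per length, was 0.195 in wild type 1 (95% interval from 0.177 to 0.213, exact binomial, counting error only) and 0.217 in wild type 2 (0.163 to 0.289). It was 0.670 in *Rfx2*-/- 6 (0.551 to 0.818), 0.670 in *Rfx2*-/- 7 (0.612 to 0.735), 0.501 in *Rfx2*-/- 10 (0.343 to 0.738) and 0.557 in *Rfx2*-/- 11 (0.315 to 1.01). In these 6 mice the intervals of the genotypes did not overlap, but wild type 1 and 2 were the only wild type mice among them. The intervals leave out the spread between mice. In the other 5 mice both genes had fewer than 20 reads. There the ratio was 0.0557 or less in wild type 3 to 5, 0.0835 in *Rfx2*-/- 8 and 0.390 in *Rfx2*-/- 9, and with these mice the genotypes overlapped.

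*Hils1* over *Tnp1* was 0.836 in wild type 1 and 2.22 in wild type 2. It was 2.38 in *Rfx2*-/- 7, 4.90 in *Rfx2*-/- 6, 7.17 in *Rfx2*-/- 10 and 9.68 in *Rfx2*-/- 11. In both genotypes the mouse with the most round spermatid markers had a lower ratio than the mouse with the next most. The intervals of wild type 2 (1.83 to 2.72) and *Rfx2*-/- 7 (2.19 to 2.59) overlapped. Wild type 4 was at 11.4, from 45 and 2 reads with an interval from 2.97 to 96.8, within the range of the *Rfx2*-/- mice (2.38 to 12.4). *Prm2* over *Prm1* was 1.03 in wild type 1 and 0.869 in *Rfx2*-/- 7, and it ranged from 0.255 to 1.28 over wild type and from 0.0912 to 0.869 over *Rfx2*-/- mice. *Prm1* over *Tnp1* in the 2 mice with most reads was 0.385 and 0.355. *Tnp2* over *Tnp1* ranged from 0.658 to 18.5 over wild type and from 0.580 to 10.1 over *Rfx2*-/- mice. *Prm2* over *Tnp1* ranged from 0.163 to 1.22 and from 0.163 to 0.611. The ratios were not tested between genotypes.

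**Figure D4:**
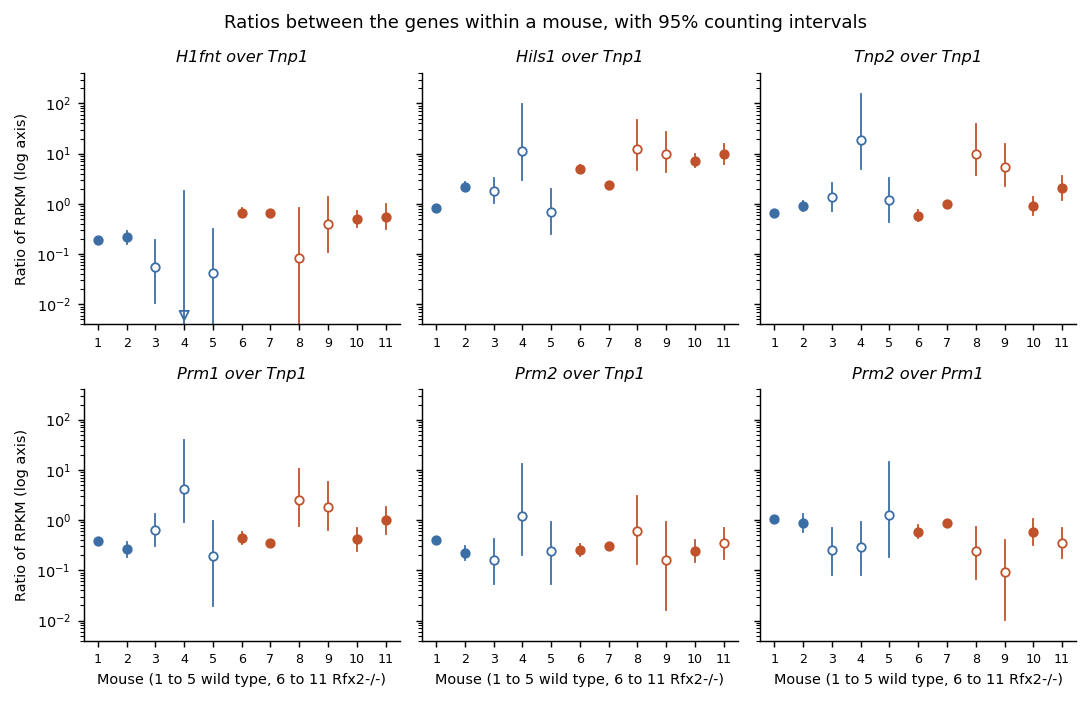
Ratios of RPKM between pairs of the 6 spermatid genes within each mouse (log axis), with exact binomial 95% intervals of the 2 counts cut at the lower edge of the panel. Mice 1 to 5 are wild type and 6 to 11 *Rfx2*-/-, open points mark mice with fewer than 20 reads of either gene and the triangle a ratio of 0. *H1fnt* over *Tnp1* is 0.195 and 0.217 in wild type 1 and 2 and 0.501 to 0.670 in *Rfx2*-/- 6, 7, 10 and 11, and the genotypes overlap once the other mice are included. The intervals hold counting error only, not the spread between mice.

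Genes that act beside the 9 were read from 6 lists, of which 50 genes were tested. EdgeR called 2% of the 50, against 2.67% of all tested genes, with 0 lower and 1 higher. That gene was the linker histone *H1fx* (H1X), present in somatic and germ cells, at 61.1, 54.2, 46.9, 52.6 and 44.4 CPM in wild type 1 to 5 and from 70.5 to 89.3 CPM in *Rfx2*-/- mice. All *Rfx2*-/- mice lay above all wild type mice, where 11.7% of all tested genes had genotypes that did not overlap. *H1fx* had a log2 fold change of 0.63 (SE 0.09, edgeR adjusted p = 0.0015). It was 1 of 4 tested genes among the other linker histones. *H1f0*, the linker histone of differentiated cells, had a log2 fold change of -0.38 and *Hist1h1c* one of -0.54 (edgeR adjusted p = 0.0600 and 0.0584), and *Hist1h1b*, *Hist1h1d*, *Hist1h1e* and the oocyte form *H1foo* had at most 12 reads in a mouse and were not tested.

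Among 15 factors of the histone exchange edgeR called 0, with 7 at an unadjusted p under 0.05, beside 41.8% of all tested genes. DESeq2 and limma voom, which called 13.4% and 6.66% of all genes, called 1 of the 15 each, the NuA4 subunit *Epc1* (log2 fold change 0.29, edgeR adjusted p = 0.0215). The 3 with the highest mean CPM, a scale not corrected for length, were *Phf7*, a reader and ligase acting on histones (log2 fold change 0.60, adjusted p = 0.129), *Hspa2*, a chaperone that binds transition proteins (0.49, adjusted p = 0.0996), and *Psme4*, the proteasome activator PA200 that degrades acetylated histones (0.55, adjusted p = 0.0775), all from edgeR. *Prm3*, the gene inside the protamine cluster, had the same mice at the top as *Prm1* and *Prm2*, with 9.41 CPM in wild type 1, 15.03 CPM in *Rfx2*-/- 7 and at most 4.19 CPM elsewhere. Its neighbours *Socs1*, *Clec16a* and *Rmi2* were not called by edgeR (1 of the list at an unadjusted p under 0.05, *Clec16a*, which DESeq2 and voom called), and their levels ran from 3.30 to 5.75 CPM for *Socs1* and from 8.60 to 14.01 CPM for *Rmi2*.

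The 10 genes for storage and translation of spermatid mRNAs and the 11 regulators of haploid transcription were tested. EdgeR called 0 in either list, with 6 at an unadjusted p under 0.05 in each, beside 41.8% of all tested genes. DESeq2 called 1 of the former, *Tarbp2*, whose protein is needed for the translation of *Prm1* mRNA (log2 fold change 0.65, edgeR adjusted p = 0.0359), and 2 of the latter, *Tbpl1* and *Sox30*, and voom called *Tarbp2* and 0 of the latter. *Ybx2* and *Ybx3*, whose proteins coat stored mRNAs such as that of *Prm1*, had log2 fold changes of 0.33 and 0.67 (edgeR adjusted p = 0.304 and 0.0841), and *Piwil1*, a partner of small RNAs in these cells, had 0.26. *Tbpl1*, a TBP relative needed in spermatids, had 0.79 (edgeR adjusted p = 0.0509), while *Brwd1* and *Mybl1* had -0.08 and 0.27. *Hspa2*, *Piwil1* and *Mybl1* are also among the pachytene spermatocyte markers.

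Of 14 replacement core histones and short H2A variants, 9 were in the table and 7 were tested. EdgeR, DESeq2 and voom called 0 of them, and edgeR gave 0 an unadjusted p under 0.05, beside 41.8% of all tested genes. *H3f3b*, an H3.3 gene, had 593 ± 56.9 CPM (SD, n = 5) and 627 ± 25.4 CPM (SD, n = 6), and *H2afy* and *H2afx* had log2 fold changes of 0.05 and 0.19 (edgeR adjusted p = 0.638 and 0.182). The short H2A variants *H2al2a* and *H2al3*, which enter spermatid chromatin with the transition proteins, were counted in too few mice to be tested. *H2al2a* had 60 reads in wild type 1, 184 in *Rfx2*-/- 7 and 24 in *Rfx2*-/- 6, and at most 6 in any other mouse, and *H2al3* had 81 and 45 reads in wild type 1 and *Rfx2*-/- 7. These are the mice in which *Tnp1*, *Tnp2* and the protamines were highest.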

How the data were processed

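Testis RNA of 5 wild type and 6 *Rfx2*-/- mice at P21 was analysed, grouped by the sample titles. Per the study's methods, the authors made TruSeq libraries, discarded reads that mapped to several places and counted reads on merged exons of protein coding isoforms with featureCounts 1.4.6 on Ensembl's GRCm38, without those touching exons of more than 1 gene. The submitters' processing notes name CASAVA 1.8.2 and STAR 2.4, while the study's supplement gives a different aligner in another paragraph. The table holds raw counts as deposited by the authors, without normalization. Totals were 22232097 to 29769483 counts per mouse, TMM factors were 0.894 to 1.18, and the floor of 3 counts covers counting error only. Nothing in the labels ties mice to litters or batches.

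Genotypes were compared with edgeR 4.0.16 in R 4.3.3 (filterByExpr, TMM, glmQLFit and glmQLFTest, no covariate), and p-values were adjusted by Benjamini-Hochberg over 15745 genes. A call is an adjusted p of at most 0.01. CPM used TMM library sizes, log2 CPM a prior count of 2, and RPKM the merged exons of protein coding transcripts in GENCODE M21, which held 22293 of the 23074 identifiers. Alternatives were DESeq2's size factors, total counts, DESeq2 1.42.0, limma 3.58.1 voom, a robust prior, other filters, a round spermatid score as covariate, other thresholds and each mouse left out. Named genes outside the 9 are the 5 nearest to *Hist1h1t*, *H1fnt*, *Tnp1* and *Prm1* by r, *Rfx2*, and genes of the lists that were called or were the 3 highest. Genes of the lists named for their place beside a member (*Prm3*, *Socs1*, *Rmi2*), for calls by other tools (*Epc1*, *Tarbp2*, *Clec16a*, *Sox30*, *Wt1*) or for low counts, and *Camk4* among the observations, were chosen after their values were seen. The 9 genes, the lists, the markers and the tests were chosen with earlier results of these data known. The scripts were tested on simulated counts. Protein sequences were not used here. Further steps used Python 3.11.15, SciPy 1.17.1, pandas 2.3.3 and matplotlib 3.10.9.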

Additional observations from a re-analysis of the deposited data

Results flagged for a closer look

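In 6 spermatid genes and *Prm3*, 1 mouse of a genotype lay far above the others by Dixon's criterion for a single outlying value. This held for 13 of 28 sets of values looked at (each gene, the marker sum and the total count in each genotype). The criterion was applied to values without a log, and its chance rate of about 1 in 20 sets holds for normally distributed values only. Levels that span many fold are marked more readily without a log, so no excess over that rate is read from the 13. All 7 in wild type were in mouse 1, with 25.3 CPM of *H1fnt* (others at most 2.76), 71.8 of *Hils1* (18.6), 43.4 of *Tnp1* (4.24), 36.3 of *Tnp2* (4.88), 21.9 of *Prm1* (1.45), 35.3 of *Prm2* (1.95) and 9.41 of *Prm3* (2.29). All 6 in *Rfx2*-/- were in mouse 7, with 58.0 CPM of *H1fnt* (others at most 12.4), 28.9 of *Tnp1* (6.19), 36.0 of *Tnp2* (4.55), 13.4 of *Prm1* (3.55), 18.2 of *Prm2* (3.27) and 15.03 of *Prm3* (4.19). The marks are not independent, since the genes share their libraries, and neither the summed round spermatid markers nor the 3 spermatocyte histones were marked in either genotype.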

How the results depend on the processing

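The 9 genes had 0 calls, lower or higher, under all 23 alternatives, and 0 of 9 genotype separations under all 13 of that comparison. DESeq2 gave no p for 4 of the 9, so its 0 rests on 5. Counts of all genes moved: 911 lower and 1146 higher with DESeq2's Wald test, 682 and 367 with voom, 753 and 457 with the round spermatid score, and 184 to 393 lower and 45 to 192 higher with 1 mouse left out, while 437 and 170 were called without wild type 3 and 5 and 220 and 96 without wild type 1 and *Rfx2*-/- 7. The share of calls that were lower was 72.6%, and 44.3% with DESeq2's test. Directions that turned were those of *Hist1h1t* with voom (-0.092) and without wild type 3 and 5 (-0.14), of *Hist1h2ba* with total counts (-0.14), voom (-0.17), without wild type 1 and *Rfx2*-/- 7 (-0.01) and without wild type 3 and 5 (-0.03), of *Tnp1* with voom (0.064) and without wild type 1 and *Rfx2*-/- 7 (0.62), of *Prm1* with voom (0.46) and without those 2 mice (1.299), and of *Tnp2* (0.48) and *Prm2* (0.83) without them. The cause was not tested. With 1 mouse left out the values ran from 0.08 to 0.50 for *Hist1h1t*, -0.14 to 0.10 for *Hist1h2ba*, -0.69 to 4.14 for *H1fnt*, -2.32 to 2.35 for *Tnp1*, -1.71 to 2.09 for *Tnp2*, -1.76 to 2.56 for *Prm1* and -2.82 to 2.70 for *Prm2*. *H1fx* stayed called under all 21 alternatives (adjusted p = 1.5e-09 to 0.00564). With a mean count of at least 50, *Hist1h1t* and *Hist1h2aa* were not tested. Per its methods, the study took littermates of the same age where it could. The labels tie no mouse to a litter, so no paired analysis was possible.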

Other observations

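Summed markers of spermatogonia and Sertoli cells were lowest in the mice in which the spermatid genes were highest. In wild type mice 6 spermatogonial markers summed to 268 CPM in mouse 1 and to 555 CPM in mouse 5, and 7 Sertoli cell markers to 2137 and 3173 CPM, while the 6 spermatid genes were highest in mouse 1. *Rfx2*-/- 7 had the lowest sums of its genotype in both lists, at 261 and 2069 CPM. The Sertoli cell sum rests most on *Clu* (1828 to 2697 CPM in wild type and 1804 to 2110 CPM in *Rfx2*-/- mice). EdgeR called 0 genes of both lists, with 3 of 6 and 6 of 7 at an unadjusted p under 0.05 beside 41.8% of all tested genes, and DESeq2 called 0 and 1 (*Wt1*, log2 fold change -0.37 in edgeR). *Hsd3b1*, a steroid-making enzyme of Leydig cells, was called lower (log2 fold change -0.86, edgeR adjusted p = 0.00126), as 1 of 5 Leydig cell markers, whose sums of 126 to 312 CPM in wild type and 73.1 to 278 CPM in *Rfx2*-/- mice did not follow the spermatid genes. The 3 macrophage markers summed to 23.1 to 44.8 and 20.1 to 28.4 CPM with 0 calls.

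*Camk4*, a kinase that phosphorylates PRM2, had 2.35 to 6.02 CPM in wild type and 2.49 to 27.2 CPM in *Rfx2*-/- mice (log2 fold change 1.41, SE 0.61, edgeR adjusted p = 0.106). *Chd5*, whose pattern was close to that of *Tnp1*, ran from 11.2 to 123 CPM in wild type and from 12.9 to 122 CPM in *Rfx2*-/- mice, with a log2 fold change of 0.02.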
